A study of Homo sapiens with 4 samples.

Results

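The FOXC1 binding regions described here are those at promoters of protein-coding genes in J82 cells, an established human bladder cancer cell line. DNA bound by FOXC1 was recovered with the antibody D8A6 and sequenced (ChIP-seq) in 2 biological replicates, and 2 input libraries made without antibody served as the background for peak calling. The cells were grown in DMEM with fetal bovine serum, and no treatment or genetic change is named for any of the 4 samples. The study concerns the role of this factor in the cisplatin resistance of bladder cancer cells. Each replicate gave its own list of peaks on the hg19 genome build. The lists hold no expression values, so that the identity of the cell line could not be checked against marker genes. Peaks of the replicates that overlapped by at least 1 bp were merged, and 13228 regions on chromosomes 1 to 22 and X held a peak of each replicate. The summit of a region, the place where most reads piled up, was taken as the midpoint of both replicates' summits. Members were the shared regions whose summit fell no more than 2 kb from where a transcript of a protein-coding gene starts. There were 1788 members, 13.5% of the shared regions (Wilson interval 12.9 to 14.1%). The remaining 11440 are called the other shared regions. With 2 replicates no test over samples was possible. Shares are therefore given with 95% Wilson intervals and differences of shares with 95% Newcombe intervals, and both cover counting error over regions only.

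FOXC1 belongs to the forkhead family of transcription factors, which hold the DNA double helix with a winged-helix domain and recognise short sequences built around TAAACA. Several forkhead factors can bind DNA that is still wrapped in nucleosomes, and FOXC1 itself is known for its part in the development of the eye, the skeleton and the vessels, and for mesenchymal traits in tumours. Promoters are the stretches around transcription start sites, where RNA polymerase is loaded. Many promoters of widely expressed genes lie in CpG islands, which are rich in G and C and hold GC boxes and ETS sequences, whereas the TA-rich forkhead sequence is rare in them.

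The sequences under the best ranked members that held GTAAACA within 50 bp of the summit are shown first, because this form of the forkhead sequence was more frequent in members than in the other shared regions. Within each replicate regions were ordered by −log10 p, and the poorer of both places ranked a region. Each sequence is read 5′ to 3′ along the strand that holds the match, and the capitals mark GTAAACA on GRCh37, the assembly of hg19.
TRIM34, chr11:5642575-5642635, plus strand: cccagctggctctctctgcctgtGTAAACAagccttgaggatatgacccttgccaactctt
DST, chr6:56716014-56716074, plus strand: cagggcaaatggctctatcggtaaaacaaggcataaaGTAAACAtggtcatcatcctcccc
MYPN, chr10:69847283-69847343, plus strand: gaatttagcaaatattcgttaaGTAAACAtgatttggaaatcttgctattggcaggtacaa
C18orf63, chr18:71984098-71984158, minus strand: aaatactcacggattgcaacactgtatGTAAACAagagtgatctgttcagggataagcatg
FCHO2, chr5:72251858-72251886, minus strand: cccgccgctgtGTAAACAcggcccggccc
TMCO4, chr1:20126816-20126876, plus strand: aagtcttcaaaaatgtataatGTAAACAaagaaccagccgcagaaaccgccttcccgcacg

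In these 6 windows the match was centred between 4 and 28 bp from the summit. The next sequences are those of the best ranked CpG-rich members within 250 bp of a start site that held GTAAACA, a group chosen after these shares had been seen, after the FCHO2 region that also leads it. Capitals again mark GTAAACA.
TPRG1L, chr1:3541326-3541386, plus strand: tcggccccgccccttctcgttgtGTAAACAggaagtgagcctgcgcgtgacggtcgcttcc
SPART, chr13:36919959-36920019, plus strand: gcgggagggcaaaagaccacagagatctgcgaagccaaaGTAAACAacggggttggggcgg
ETV5, chr3:185826993-185827053, minus strand: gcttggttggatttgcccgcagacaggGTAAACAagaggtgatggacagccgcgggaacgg
BTD, chr3:15643152-15643180, plus strand: gaggtgagaatGTAAACAcgcgcgttctc
LMO4, chr1:87795015-87795075, plus strand: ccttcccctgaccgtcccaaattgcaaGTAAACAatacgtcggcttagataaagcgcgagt

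An extended element, CCAA followed by a core that resembles the forkhead sequence, was known from an earlier look at the strongest peaks of these data. It is shown here because it lay under 12 of the 20 best ranked members. Over all members its share was 5.93%, and over the other shared regions 7.45%. Its 12 bases are in capitals in the best ranked members that could be printed.
ECH1, chr19:39322614-39322674, plus strand: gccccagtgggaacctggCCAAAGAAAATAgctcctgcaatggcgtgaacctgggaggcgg
KLHL24, chr3:183382850-183382910, plus strand: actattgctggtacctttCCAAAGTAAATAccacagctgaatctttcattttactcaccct
HIVEP1, chr6:12014547-12014607, minus strand: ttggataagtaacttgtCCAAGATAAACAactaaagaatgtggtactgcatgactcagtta
TERF2, chr16:69444287-69444347, plus strand: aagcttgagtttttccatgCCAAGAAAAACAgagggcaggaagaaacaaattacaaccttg
ATXN7L1, chr7:105332361-105332421, plus strand: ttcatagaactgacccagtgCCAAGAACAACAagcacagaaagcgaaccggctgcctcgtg
LNX1, chr4:54568922-54568982, plus strand: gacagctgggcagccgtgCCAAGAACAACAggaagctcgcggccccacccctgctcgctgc

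To examine how the members were placed around genes, summits were counted by their distance to the nearest start site. They gathered at the start site itself. The 250 bp upstream of a start site held 356 member summits and the 250 bp downstream held 185, whereas each 250 bp beyond 1 kb on either side held 55 to 88. Corrected for the length of genome at each distance, summits lay at 15.6 per Mb within 100 bp of a start site, at 9.07 per Mb between 250 and 500 bp and at 5.79 per Mb between 1.5 and 2 kb. Outside the 2 kb they lay at 5.36 per Mb between 2 and 5 kb, at 5.03 per Mb between 5 and 20 kb and at 3.63 per Mb beyond 20 kb. Over the whole 2 kb the density was 8.06 per Mb, compared with 4.06 per Mb farther away, a ratio of 1.98. The lengths are those of whole chromosomes. Unsequenced gaps, which can hold no summit, were not removed and lower the density where they lie.

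**Figure D1:**
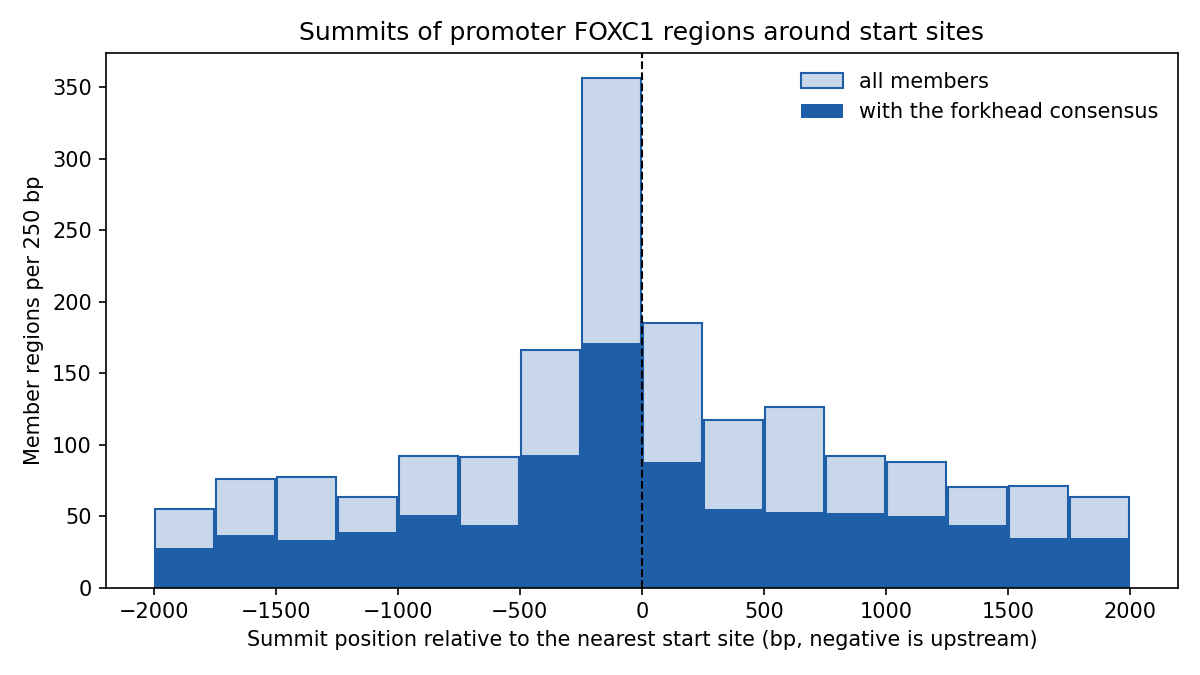
Number of member regions (y axis) in bins of 250 bp by the position of the summit relative to the nearest protein-coding start site in bp (x axis, negative values upstream, dashed line at the start site). Pale bars are all 1788 members and dark bars those with the forkhead consensus within 50 bp of the summit. The tallest bar, 356 regions, is the 250 bp just upstream.

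Within 250 bp of a start site there were 541 members, called near members here, and 1247 lay farther away. Near members lay upstream of the start site in 65.8% of cases (interval 61.7 to 69.7%), and the members farther away in 49.7% (interval 46.9 to 52.5%). Introns held 62.9% of all member summits, sequence outside protein-coding transcripts 19.5%, untranslated exons 10.3%, other exons without coding sequence 4.81% and coding sequence 2.46%. An intron can hold a promoter because a start site counted whichever transcript it belonged to. Only 910 members, 50.9% (interval 48.6 to 53.2%), lay within 2 kb of the start of the transcript that the annotation names as canonical for a gene. A start site of a long non-coding RNA lay within 2 kb of 16.7% of the members (interval 15.1 to 18.5%). One gene start alone was in reach of 1633 members, while 143 had 2 genes and 12 had 3 genes within 2 kb.

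The edge of the definition cut through a continuous series of regions. The outermost members were 1996.5 bp away from a start of TAFA4, with fold enrichments of 5.5 and 7.0 in replicates 1 and 2, and 1997 bp from MEST, with 5.62 and 11.4. The first regions outside lay 2002 bp from TOGARAM1, with 3.93 and 6.90, and 2002.5 bp from MTHFD1, with 2.91 and 5.13. Between 1750 and 2000 bp there were 117 summits, and between 2000 and 2250 bp there were 109.

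The strongest member was the best ranked of all shared regions. Its peak spanned chr19:39322041-39323317, and its summit was 163.5 bp upstream of a start site of ECH1, which encodes an enzyme of fatty acid oxidation. Its fold enrichment, the reads piled up at the summit over the local background, was 86.0 in replicate 1 and 94.5 in replicate 2 (mean 90.3 ± 6.02, SD, n = 2). These values rested on 487 and 527 reads at the summits. The next members by rank lay 19 bp downstream of a start site of PCMTD1, a protein of the isoaspartate methyltransferase family, with fold enrichments of 61.7 and 70.7, and 94 bp upstream of CYB5R2, a cytochrome b5 reductase, with 50.3 and 53. The KLHL24 region, 991 bp downstream of the start site of this ubiquitin ligase adaptor, had fold enrichments of 39.0 and 46.2. That these 4 regions stood high in both replicates follows from the rank, which takes the poorer of both places.

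The 20 best ranked members included regions at genes of ubiquitin ligases. CUL4B encodes a scaffold of ubiquitin ligases and DCAF8 a substrate receptor that works with it. The fold enrichment was 33.9 and 57.1 at CUL4B and 25.6 and 56.9 at DCAF8 in replicates 1 and 2. HERC5, the ligase of the ubiquitin-like protein ISG15, had 43.0 and 68.1, and LNX1, a ligase that acts on NUMB, had 51.1 and 56.5. At TERF2, which encodes a protein that caps telomeres, the values were 41.6 and 52.3. These genes are named by their rank, and no test was made of what they share.

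GSTP1 encodes the glutathione transferase that couples glutathione to electrophilic compounds. Its region, chr11:67349569-67350610, ranked 64 of the 13228 shared regions and lay 1087 bp upstream of the start site. The fold enrichment was 52.1 in replicate 1 and 63.9 in replicate 2 (mean 58.0 ± 8.37, SD, n = 2), with 268 and 335 reads. It carried the extended element and not the forkhead consensus.

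The remaining regions among the 20 best ranked lay at HIVEP1, TINAGL1, ATXN7L1, ANK1, TGM2, RASL11A, HIP1, ENOX2, GALNT10 and TRIM34. Over all 20 the fold enrichment ranged from 24.4 to 86.0 in replicate 1 and from 30.8 to 94.5 in replicate 2, with 164 to 487 and 285 to 527 reads. Replicate 2 was higher in 19 of them. The exception was TGM2, a transglutaminase that crosslinks proteins, with 36.0 in replicate 1 and 30.8 in replicate 2. The summits of the replicates lay at most 20 bp apart in these regions. The extended element lay within 50 bp of the summit in 12 of the 20, the forkhead consensus in 6 and both in 3. Over all members the extended element was found in 5.93% and the forkhead consensus in 50.8%. Over the other shared regions these shares were 7.45% and 48.3%. The extended element was known from the strongest peaks of these data, so its count among the 20 is no independent support for it. The forkhead consensus stands here for GTAAACA or ATAAACA or GTAAATA or ATAAATA on either strand. At CYB5R2, TINAGL1, ANK1, TGM2 and HIP1 neither was found.

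**Figure D2:**
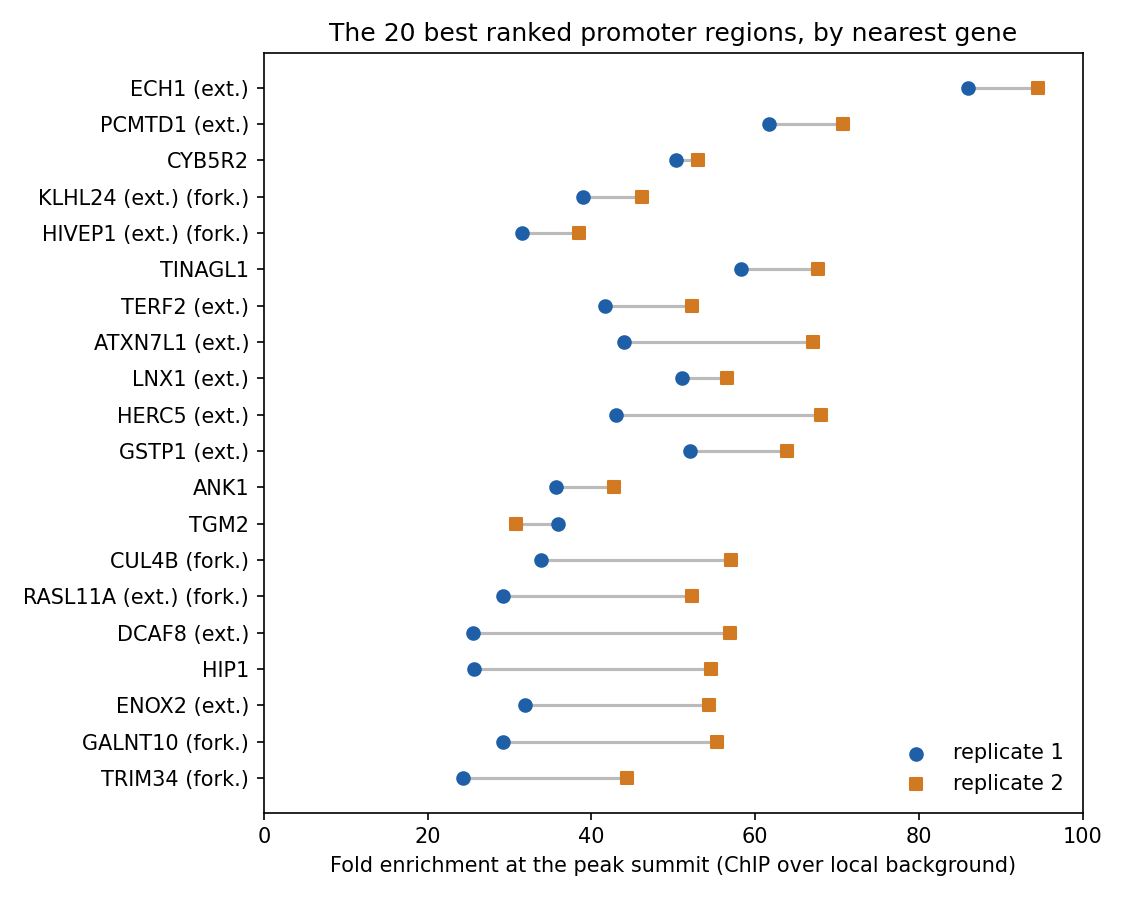
Fold enrichment at the peak summit (x axis, linear ratio of ChIP over local background) of the 20 best ranked members, each named by its nearest gene (y axis, best rank at the top). Circles are replicate 1, squares replicate 2, and a line joins the values of one region. The marks (ext.) and (fork.) stand for the extended element and the forkhead consensus within 50 bp of the summit. Replicate 2 is the higher value in 19 of 20 regions.

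Of the 10 best ranked members within 250 bp of a start site, 5 lay in CpG-rich sequence. Beyond those already named, they lay at SLC45A4 with fold enrichments of 26.0 and 45.4, at LNPEP with 28.0 and 36.9, at ZNF282 with 24.0 and 44.1 and at FCHO2 with 21.9 and 36.2. FCHO2 starts the assembly of clathrin-coated pits. Its summit fell 0.5 bp from the start site, in untranslated exon sequence, where the observed over expected CpG ratio was 1.201. It was the only region of these 10 with GTAAACA.

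The 10 best ranked members with GTAAACA are the best of a subset, so they could not outrank the best of all members. Over all 484 members with GTAAACA the median fold enrichments were 3.98 and 7.53 in replicates 1 and 2. Over all members these medians were 3.70 and 6.74. The ranks of the 10 best ran from 144 to 382. These 10 regions had fold enrichments from 16.7 to 24.6 in replicate 1 and from 29.6 to 48.9 in replicate 2. They lay at TRIM34, DST, MYPN, C18orf63, FCHO2, TMCO4, FHL1, TPRG1L, ANKRD1 and SLC12A8. MYPN encodes myopalladin of the muscle sarcomere and FHL1 a LIM protein of muscle, and ANKRD1 is a cardiac ankyrin repeat protein and a well-known target of YAP. The ANKRD1 region lay 451.5 bp upstream of its start site, with fold enrichments of 23.5 and 31.7 and 149 and 209 reads. None of the 10 carried the extended element.

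Over all members, the median fold enrichment was 3.70 in replicate 1 (quartiles 3.02 and 5.27) and 6.74 in replicate 2 (quartiles 4.74 and 10.5), with a median of 22 and 43 reads over the summit. The values of a typical member therefore rested on few reads. Replicate 2 gave the higher fold enrichment at 92.9% of the members (interval 91.6 to 94.0%) and at 91.7% of the other shared regions. Over the members, the median log2 ratio of replicate 2 to replicate 1 was 0.80, with an SD of 0.51. Spearman's rho between the replicates was 0.722 over the 1788 members and 0.752 over the other shared regions, as a description in which regions of a library share its depth. The ratio ranged from 0.490 at MED24, with 5.79 and 2.84, to 5.49 at TRIM69, with 1.98 and 10.9. Both of these regions were picked for their ratio.

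The reproducibility of each region was described by the irreproducible discovery rate (IDR), which is low where both replicates rank a region high. At an IDR of 0.05 or less there were 756 members, 42.3% (interval 40.01 to 44.6%), against a background of 45.1% over all shared regions. The other shared regions passed in 45.5%, a difference of −3.23 percentage points (interval −5.67 to −0.75). Near members passed in 46.2% and members farther away in 40.6%, a difference of 5.63 points (interval 0.647 to 10.6). Members that passed held the forkhead consensus more often than those that did not, at 56.9% and 46.3% (difference 10.6 points, interval 5.88 to 15.2).

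To examine the DNA under the members, the forkhead consensus was looked for on either strand in the 50 bp to each side of the summit. It was found in 908 members, 50.8% (interval 48.5 to 53.1%). At control positions 500 bp to either side of the summit it was found in 8.0% of the members, upstream and downstream alike, and in 2.82% of windows of the same length at 19819 canonical start sites. The nearest match was centred a median of 12 bp from the summit, in the members and in the other shared regions. It read in the direction of the gene in 46.4% of the 908 members (interval 43.1 to 49.6%), and 105 held more than 1 match.

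The consensus as a whole barely set the members apart. The other shared regions held it in 48.3%, a difference of 2.5 points (interval 0.005 to 4.98). When each replicate's own summit was used, the difference was 0.592 points in replicate 1 (interval −1.87 to 3.08) and 3.37 points in replicate 2 (interval 0.878 to 5.86). Over all peaks of replicate 2 alone, shared or not, it was −1.63 points. Near members held it in 47.9% and members farther away in 52.0%, a difference of −4.17 points with an interval from −9.18 to 0.871.

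The 4 sequences that the consensus stands for differed in direction. GTAAACA was found in 484 members, 27.1% (interval 25.1 to 29.2%), and in 19.8% of the other shared regions, a difference of 7.24 points (interval 5.10 to 9.47). It was more frequent in members with the summit of replicate 1 alone (5.83 points, interval 3.79 to 7.97) and with that of replicate 2 alone (7.77 points, interval 5.61 to 10.0). Over all peaks of 1 list, shared or not, the difference was smaller, at 2.18 points without replicate 1 (interval 1.18 to 3.22) and 4.76 points without replicate 2 (interval 3.32 to 6.29). At the control positions of the members its share was 1.29% upstream and 1.45% downstream, and at canonical start sites 0.651%. ATAAACA was less frequent in members, at 16.4% and 18.4% (difference −1.93 points, interval −3.73 to −0.01). GTAAATA was found in 5.87% and 7.28% (difference −1.41 points, interval −2.52 to −0.135), and ATAAATA in 5.93% and 7.85% (difference −1.92 points, interval −3.05 to −0.637). As a control of the same base composition, the consensus was read backwards as ACAAATG or ATAAATG or ACAAATA or ATAAATA, the last of which it shares with the consensus itself. This reversed consensus was found in 11.9% of members and 16.7% of the other shared regions (difference −4.79 points, interval −6.37 to −3.07). Only GTAAACA, with a G and a C at the variable places, was more frequent in members.

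In all, 17 sequences were counted at the summits, and those other than the forkhead consensus, GTAAACA and the reversed consensus were picked after earlier results of these data were known. The largest deficit among them was that of TGACTCA, the sequence bound by AP-1 dimers of FOS and JUN proteins. It lay under 10.1% of the members (interval 8.76 to 11.5%) and 17.6% of the other shared regions, a difference of −7.56 points (interval −9.05 to −5.92). Over all peaks of 1 list it was −5.07 points without replicate 1 and −3.32 points without replicate 2 (interval −4.34 to −2.19). The forkhead consensus and TGACTCA stood together in 69 members, 3.86%, and in 7.88% of the other shared regions (difference −4.02 points, interval −4.96 to −2.91). TGTGGTT, bound by RUNX factors, was found in 3.36% and 5.81% (difference −2.46 points, interval −3.32 to −1.43). The TEAD sequence GGAATG was found in 8.84% and 10.3% (difference −1.51 points, interval −2.87 to −0.006), the extended element in 5.93% and 7.45% (difference −1.52 points, interval −2.64 to −0.239), and CCAAT, bound by NF-Y, in 12.4% and 14.3% (difference −1.93 points, interval −3.52 to −0.206).

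Sequences that are usual at CpG-island promoters were more frequent in members. The GC box GGGCGG, bound by SP and KLF factors, was found in 8.11% of the members and 0.935% of the other shared regions (difference 7.17 points, interval 5.98 to 8.54). CCGGAAA or CCGGAAG, bound by ETS factors, was found in 2.40% and 0.507% (difference 1.90 points, interval 1.27 to 2.72), the E2F sequences TTCCCGC and TTCGCGC and TTGCCGC and TTGGCGC in 2.07% and 0.472% (difference 1.60 points, interval 1.02 to 2.38), and the E-box CACGTG in 2.13% and 0.813% (difference 1.31 points, interval 0.711 to 2.10). The CREB and ATF sequence TGACGTCA lay under 7 members, 0.391%, and under 9 of the other shared regions, 0.0787% (difference 0.313 points, interval 0.099 to 0.729). For AANATGGC of YY1 the interval of the difference, −0.153 to 1.37 points, included 0. The share at promoters as a whole depended on the distance from the start site, and 1247 of the members lay beyond 250 bp. At canonical start sites themselves, windows of the same length held the GC box in 35.9%, the ETS sequences in 10.3%, those of E2F in 6.30%, CACGTG in 3.30% and TGACGTCA in 1.19%, all above the members. In windows 1 kb upstream the same shares were 5.40%, 0.99904%, 1.201%, 1.35% and 0.116%, all below the members. At the canonical start sites, TGACTCA was found in 1.09%, TGTGGTT in 0.959%, GGAATG in 3.08%, CCAAT in 9.34% (21.8% in windows 100 bp upstream), AANATGGC in 5.48% and the extended element in 0.136%.

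**Figure D3:**
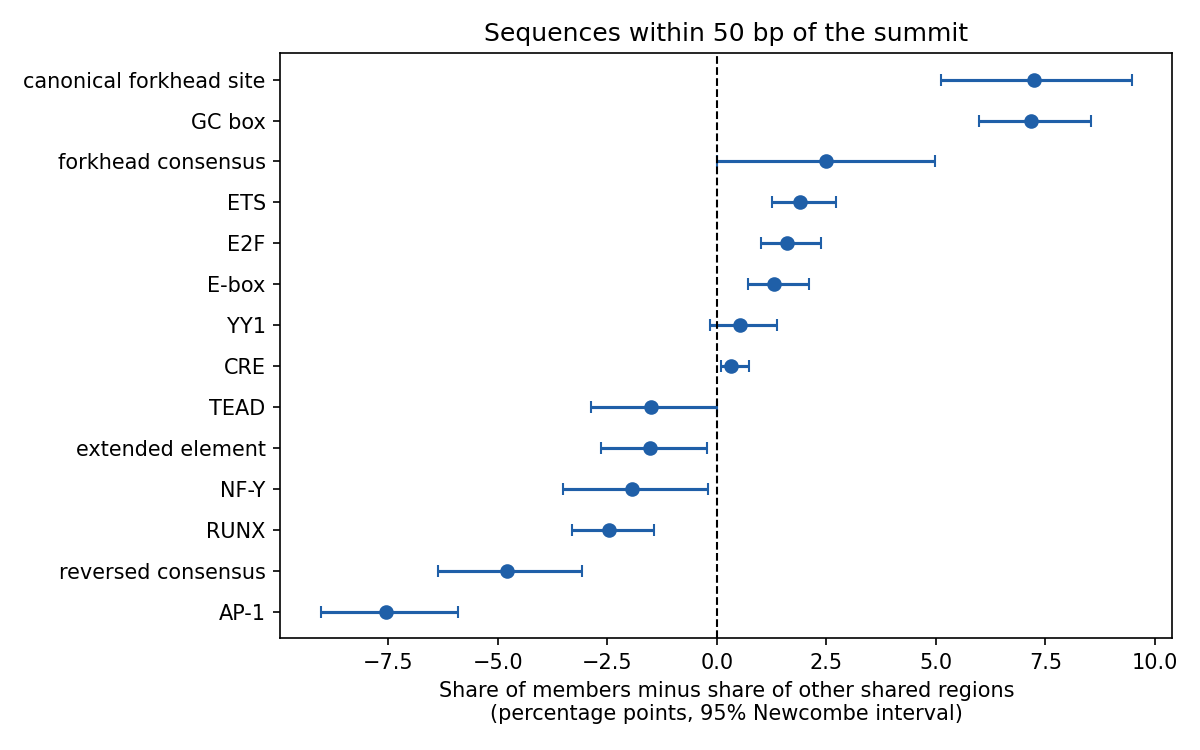
Share of members minus share of other shared regions that hold a sequence within 50 bp of the summit (x axis, percentage points, points with 95% Newcombe intervals, dashed line at no difference) for 14 of the 17 sequences (y axis). The canonical forkhead site is GTAAACA, and the other 3 forms of the forkhead consensus are left out. GTAAACA and the GC box lie farthest to the right, at 7.24 and 7.17 points, and AP-1 farthest to the left, at −7.56 points.

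These shares changed with distance in different ways. GTAAACA lay between 24.0% and 32.7% in all 6 classes of distance within 2 kb, with overlapping intervals. Just outside, between 2 and 5 kb, it was 23.3% (interval 21.0 to 25.8%). That interval overlaps those of the classes inside, except the class between 250 and 500 bp (interval 27.6 to 38.4%). The share of GTAAACA was 18.9% between 5 and 20 kb and 19.7% beyond. TGACTCA lay between 7.04% and 12.8% within 2 kb, and at 17.6% already between 2 and 5 kb. The GC box fell from 18.7% within 100 bp to 1.51% between 1.5 and 2 kb, and the ETS sequences from 8.48% within 100 bp to 2.33% between 100 and 250 bp.

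**Figure D4:**
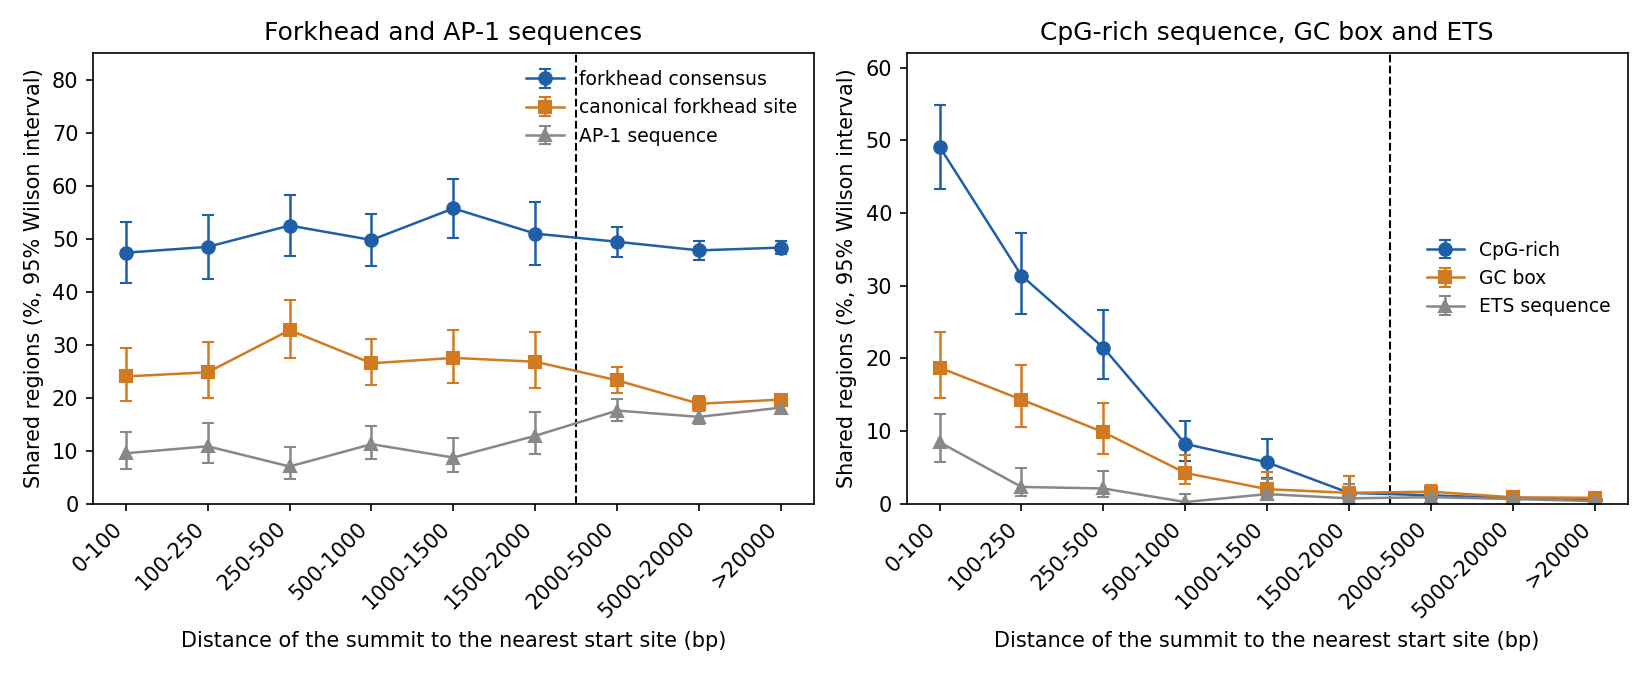
Share of shared regions (y axis, percent, with 95% Wilson intervals) that hold a sequence within 50 bp of the summit or are CpG-rich, by the distance of the summit to the nearest protein-coding start site in bp (x axis, classes of unequal width). Members lie left of the dashed line. The canonical forkhead site GTAAACA stays between 24.0% and 32.7% within 2 kb and is 23.3% between 2 and 5 kb, while the CpG-rich share falls from 49.1% to 1.51%.

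CpG-rich sequence was defined as 300 bp around the summit with at least 50% GC and an observed over expected CpG ratio of at least 0.6. It surrounded 335 members, 18.7% (interval 17 to 20.6%), and 0.656% of the other shared regions (difference 18.1 points, interval 16.3 to 19.96). Of the near members 40.7% were CpG-rich (interval 36.6 to 44.9%), and of the members farther away 9.22%. At canonical start sites the share was 68.1%.

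Forkhead sequences were also found under the CpG-rich members. The consensus was found in 50.1% of them and in 50.9% of the other members, a difference of −0.780 points with an interval from −6.69 to 5.13. GTAAACA was more frequent, at 32.2% and 25.9% (difference 6.36 points, interval 1.05 to 11.99), and ATAAACA less so, at 10.7% and 17.8% (difference −7.01 points, interval −10.5 to −2.80). By comparison, GTAAACA was found in 0.518% of the 13504 CpG-rich canonical start sites and the consensus in 1.49%. TGACTCA lay under 1.79% of the CpG-rich members and 11.98% of the others (difference −10.2 points, interval −12.2 to −7.59). The TPRG1L region, at the start of a gene for a presynaptic protein, is an example with GTAAACA in GC-rich surroundings. Its fold enrichments were 16.7 and 48.9, with 121 and 256 reads, and its CpG ratio was 0.887. The split by CpG content was made after the shares over all members had been seen.

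To compare the strength of binding, regions above the median of all shared regions by the mean of their log2 fold enrichments were counted. Members were above it in 49.2% and the other shared regions in 50.1%, a difference of −0.905 points with an interval from −3.39 to 1.59. Over all peaks of replicate 1 alone the difference was 5.14 points (interval 3.14 to 7.13). Among the members, strength differed by place. Near members were above the median in 57.3% and members farther away in 45.7% (difference 11.6 points, interval 6.55 to 16.5). Their median fold enrichments were 3.87 and 7.52 in replicates 1 and 2, compared with 3.68 and 6.49 farther away. CpG-rich members were above the median in 60.9% and the other members in 46.5% (difference 14.4 points, interval 8.46 to 20.1), and their median fold enrichments were 4.01 and 7.79. With a −log10 q of 5 or more in both replicates, these differences were 0.146 points for near members and 4.53 points for CpG-rich members, and both intervals included 0.

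The local background moved with these groups. It is the number of reads expected at a summit, set by the authors' peak caller from the input and never below its genome-wide value, and it divides the fold enrichment. Above-median backgrounds were found in 38.8% of the members and 51.8% of the other shared regions (difference −13.0 points, interval −15.4 to −10.5). They were found in 33.8% of near members and 40.9% of members farther away (difference −7.07 points, interval −11.8 to −2.17), and in 16.4% of CpG-rich members and 43.9% of the others (difference −27.5 points, interval −31.9 to −22.5). The reads over the summit, which no background divides, had medians of 22 and 43 in the members and 24 and 45 in the other shared regions. These medians were 23 and 45 in near members and 22 and 41 farther away. They were 22 and 43 in CpG-rich members and 22 and 42 in the other members. The part of the background in the differences of fold enrichment was not tested.

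Strength and sequence were then set side by side. Members made up 12% of the 500 best ranked shared regions (60 regions) and 14.1% of those past rank 5000, the lowest ranked. The extended element, which can itself contain the forkhead consensus, lay under 25% of these 60 members (interval 15.8 to 37.2%). Its share was 20.7% over the 58 members with ranks of 501 to 1000, and 4.04% (interval 3.05 to 5.33%) past rank 5000. The other shared regions showed the same order, with 27.7%, 16.5% and 5.08% in these classes of rank. Because the element was known from the strongest peaks of these data, this order is no independent support for it. The forkhead consensus did not follow this order. The 60 best ranked members held it in 40% (interval 28.6 to 52.6%), the members ranked 501 to 1000 in 62.1% (interval 49.2 to 73.4%) and the members past rank 5000 in 47.3%. GTAAACA was found in 32.7% of the members ranked 2001 to 5000 (interval 28.3 to 37.6%) and in 20.8% of the other shared regions of these ranks (interval 19.2 to 22.3%). Past rank 5000 it was found in 24.4% and 18.6%. Neither the forkhead consensus nor the extended element was found in 817 members, 45.7%, whose median fold enrichments were 3.49 and 6.30. These shares are a description, and no test was made of them.

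The members lay at 1741 of the 20098 protein-coding genes on these chromosomes, or 8.66%, and those at an IDR of 0.05 or less at 757 genes, or 3.77%. Most of these genes, 1555, had 1 member, 163 had 2 and 23 had more. A gene with many start sites offers a larger target. The 2 kb stretches around its start sites covered a median of 14106 bp for genes with a member and 8122 bp for genes without. FOXP1, a forkhead factor with many alternative starts, had 7 members, more than any other gene, over 98814 bp of such stretches. In the best of them, at chr3:71632483-71633695, the fold enrichment was 10.5 and 22.3 in replicates 1 and 2 (mean 16.4 ± 8.35, SD, n = 2). P3H2, a collagen prolyl hydroxylase, had 4 members, and 21 genes had 3, among them PIK3CA, the catalytic subunit of a lipid kinase often mutated in bladder cancer, whose best member had fold enrichments of 5.45 and 12.3. Genes in head-to-head pairs, with canonical start sites within 1000 bp of each other and running apart, had a member in 8.20% of cases (interval 7.05 to 9.53%) and the other genes in 8.71%. By chromosome, the share ran from 3.78% on chromosome 22 (17 of 450 genes) to 13.1% on chromosome 5 (116 of 884 genes). The copy number of the chromosomes in J82 cells was not analysed here.

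To describe which kinds of genes carried members, 18 lists of genes were looked up, each to be read against the 8.66% of all protein-coding genes. The lists were drawn up with earlier results of these data known, several genes stand in more than 1 list, and the lists differ in the length of their promoter stretches, so that the counts are a description. All listed genes were found in the annotation.

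Genes that respond to YAP and TEAD, the effectors of Hippo signalling, had a member in 10 of 26 cases (38.5%, interval 22.4 to 57.5%), 4 of them at an IDR of 0.05 or less. Beside ANKRD1, they were led by AJUBA, a LIM protein of cell junctions, with fold enrichments of 7.83 and 14.5, RBMS3, an RNA-binding protein, with 4.20 and 6.91, and CCN2, a secreted matricellular protein, with 4.65 and 7.82. Of the immediate early genes, which answer growth signals within minutes, 7 of 32 (21.9%, interval 11.02 to 38.8%) had a member, 3 at an IDR of 0.05 or less. TRIB1, a pseudokinase, led them with 10.9 and 24.2, 117 bp upstream of its start site, followed by DUSP1, a phosphatase of MAP kinases, with 10.7 and 17.9, and then CCN2 and DUSP6. Their promoter stretches had medians of 10127 and 5341 bp. Of the subunits of AP-1 itself, 1 of 12 had a member, FOS, with fold enrichments of 2.997 and 5.15 and an IDR of 0.186.

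Genes often mutated in bladder cancer had a member in 14 of 44 cases (31.8%, interval 20 to 46.6%), 6 of them at an IDR of 0.05 or less, with promoter stretches of 16341.5 bp in the median. They included FOXP1, PPARG and PIK3CA. PPARG, a nuclear receptor of luminal urothelial cells, had fold enrichments of 6.996 and 11.9 at 470 bp upstream of a start site. Urothelial luminal genes had a member in 4 of 19 cases (21.1%, interval 8.51 to 43.3%), all at an IDR of 0.05 or less. These were the keratin genes KRT7, KRT8 and KRT18 and again PPARG. KRT7 had fold enrichments of 17.2 and 43.96 at chr12:52640979-52641780, where a start site of KRT86 also lay within 2 kb. KRT8 and KRT18 shared a single region with 4.41 and 13.3.

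Matrix and mesenchymal genes had a member in 9 of 38 cases (23.7%, interval 13.0 to 39.2%), 6 at an IDR of 0.05 or less, with promoter stretches of 19459 bp in the median. N-cadherin, CDH2, led them with fold enrichments of 15.5 and 23.6, 872.5 bp downstream of a start site. The collagen gene COL8A1 had 11.8 and 21.2, and the collagen gene COL4A2 had 5.81 and 19.3. Genes of the stress and unfolded protein responses had a member in 7 of 33 cases (21.2%, interval 10.7 to 37.8%), 2 at an IDR of 0.05 or less, led by the chaperone gene DNAJB4 with 17.4 and 41.1 and the stress sensor ERN1 with 7.57 and 20.4. DNAJB9 and HSF1 followed them with an IDR of 0.195 and 0.110. The DNAJB9 region lay nearer to a start site of THAP5 and was also shared by PNPLA8, and BOP1 shared that of HSF1.

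Because the study concerns drug resistance, genes of platinum transport and thiol defence were listed. A member was found at 7 of 37 (18.9%, interval 9.48 to 34.2%), 4 of them at an IDR of 0.05 or less. After GSTP1 came the metallothionein gene MT2A with fold enrichments of 8.87 and 13.6, MGST1, a microsomal glutathione transferase, with 5.16 and 8.66, and the efflux transporter ABCB1 with 3.40 and 9.26. Genes that repair DNA crosslinks and excise damaged bases had a member in 6 of 46 cases (13.0%, interval 6.12 to 25.7%), 2 of them (4.35%) at an IDR of 0.05 or less, with promoter stretches of 15084 bp in the median. The intervals of this list and of the p53 targets include the 8.66% of all genes. So do those of the urothelial luminal genes, the forkhead factors and the splicing factors. The best region of the repair genes, 790 bp upstream of a start site of BRCA1, had 8.47 and 17.7. It lay nearer to a start site of NBR1, at 167 bp. DDB1, which recognises damaged DNA together with DDB2, had 2.78 and 8.52 in a region that TKFC shares. Of p53 targets, 4 of 28 (14.3%, interval 5.70 to 31.5%) had a member, 1 of them at an IDR of 0.05 or less, led by PMAIP1, which promotes apoptosis, with 4.86 and 13.0, and MDM2, the ligase that degrades p53, with 4.84 and 6.87. PLK2 and DDB2 completed this list.

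Cell cycle genes had a member in 8 of 45 cases (17.8%, interval 9.29 to 31.3%), 3 at an IDR of 0.05 or less. CDC25C, the phosphatase that releases cells into mitosis, had fold enrichments of 10.4 and 23.4 at 6.5 bp upstream of a start site, in a region that FAM53C shares. CDK6 had 4.11 and 11.9, and the helicase subunit MCM4 had 3.84 and 10.7 in a region that PRKDC shares. MCM7, whose region AP4M1 shares, had an IDR of 0.287. Of 44 forkhead factor genes 7 had a member (15.9%, interval 7.93 to 29.4%), 4 at an IDR of 0.05 or less. After FOXP1 came FOXP2 with 8.01 and 16.8, FOXQ1 with 4.55 and 8.07 and FOXD1 with 3.22 and 10.5. FOXC1 itself had none. Splicing factor genes had a member in 5 of 41 cases (12.2%, interval 5.32 to 25.5%), 3 at an IDR of 0.05 or less, led by HNRNPM with 17.1 and 21.3, SF3A3 with 5.42 and 15.6, SF3B3 with 4.03 and 6.91 and HNRNPA1 with 3.60 and 5.73.

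Besides the AP-1 subunits, with 8.33%, 5 other lists had a share near or below that of all genes. Actin cytoskeleton genes had a member in 4 of 44 cases (9.09%), MYH9, CALD1, TPM1 and TPM3, and histone lysine demethylases in 2 of 21 (9.52%), KDM6A and KDM2B, and no region of either list had an IDR of 0.05 or less. Cytosolic ribosomal proteins had a member in 4 of 79 cases (5.06%, interval 1.99 to 12.3%), 2 at an IDR of 0.05 or less. RPS3A, with fold enrichments of 7.94 and 14.3, and RPS13, with 5.01 and 8.35, were the best of these, before RPL18, whose region lay nearer to a start site of FAM83E, and RPL13A. Of the proteasome subunits 1 of 32 (3.13%, interval 0.554 to 15.7%) had a member, PSMB7. Olfactory receptor genes of family 2, which are silent in most tissues, had a member in 0 of 62 cases, which allows a share of up to 4.84% by a limit of 3 counts (the upper Wilson bound is 5.83%), with the shortest promoter stretches of these lists, 4001 bp in the median.

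**Figure D5:**
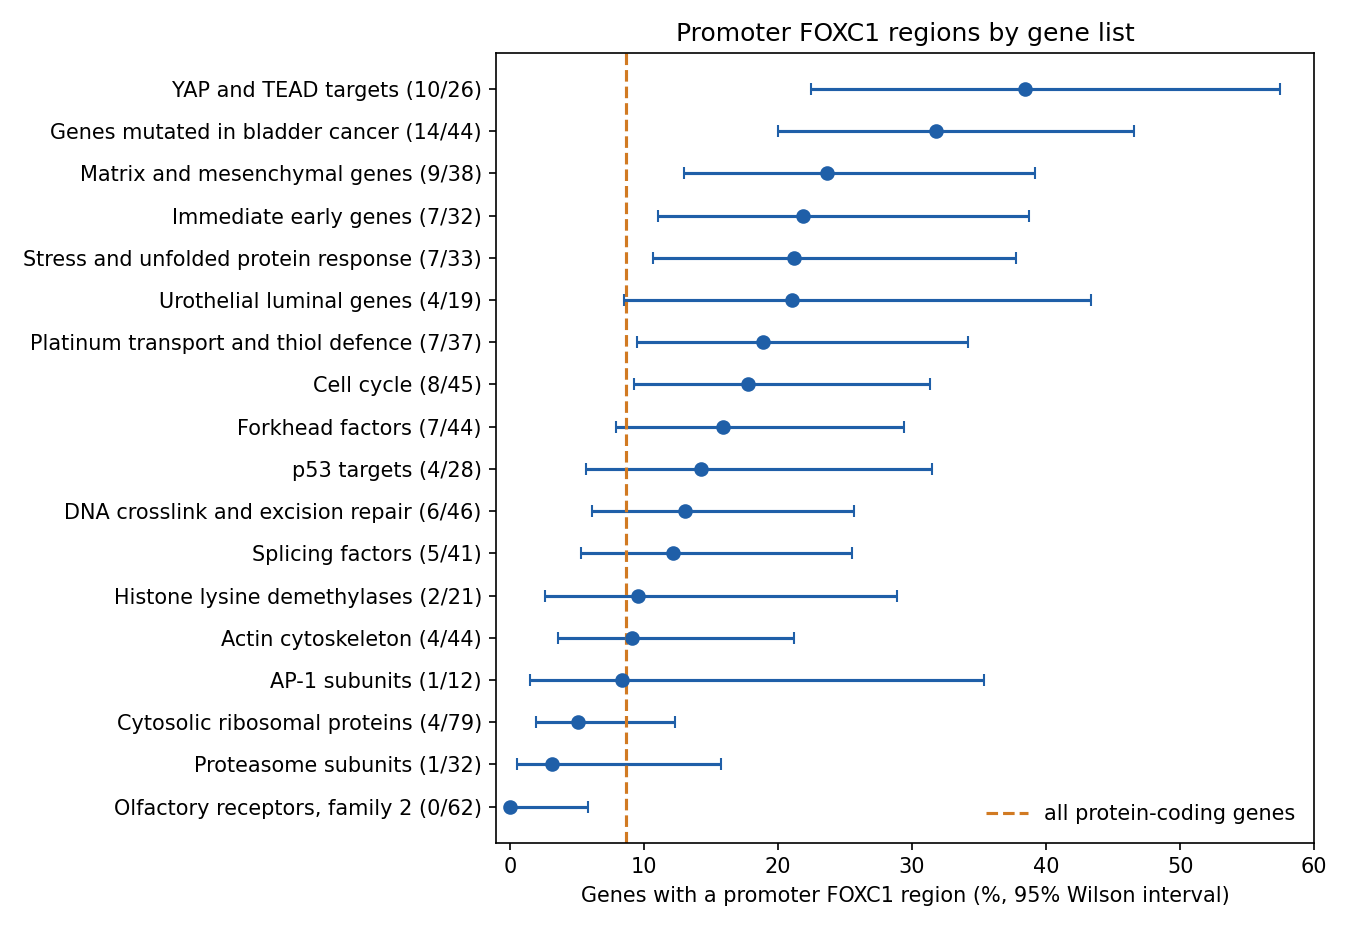
Share of genes with a promoter FOXC1 region (x axis, percent, points with 95% Wilson intervals) for 18 gene lists (y axis, with the number of genes with a member over the number listed). The dashed line is the 8.66% of all 20098 protein-coding genes. The points run from 0% for olfactory receptors to 38.5% for YAP and TEAD targets, and most intervals are wide.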

How the data were processed

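FOXC1 ChIP-seq and input libraries of J82 cells were grouped, and their replicates numbered, by their titles. The methods of the study and the submitters' processing notes state that the authors mapped reads to hg19 with BWA and called peaks against input with MACS2 2.2.7.1, with bedtools also named. An IDR step following ENCODE3 is stated, but the filter behind the lists is not given in the sources used here. Peaks were called on each replicate alone. Files of the input libraries were not analysed here.

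The score that the authors deposited for each peak is 10 times the −log10 p, truncated. The deposited ratio is the fold enrichment of the pileup plus 1 at the summit over the local background plus 1. The authors also deposited −log10 p and −log10 q for the same comparison. No values of these columns were changed.

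Of 22447 and 41832 peaks, 22393 and 41750 lay on chromosomes 1 to 22 and X. Where a region held several peaks of a replicate, the widest stood for it. The number of whole reads at a summit and its local background were solved for 100% of peaks from fold enrichment and −log10 p (residual under 0.001). The median was 18 reads in replicate 1 and 23 in replicate 2, which limits the precision of each value. Start sites came from GENCODE 44 on GRCh37 (the study used another version), and sequence from the GRCh37 assembly with pysam 0.24.0. IDR was fitted with code written for this purpose, so that its counts need not match the authors' own. Motif, interval, read and IDR code was tested on simulated data. Python 3.11.15, numpy 2.4.6, pandas 2.3.3 and scipy 1.17.1 were used.

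Named were the 20 best ranked members, the 10 best within 250 bp of a start site, the 10 best with GTAAACA and up to 4 genes per list. Regions named beyond these, at the edge of the definition, by their ratio or number of members, or for their CpG-rich sequence, were picked after their values were seen. A sequence of NRF1 was also looked at and left out because almost no region held it. The members and lists were chosen with earlier results of these data known. Sequences of one chromosome were not printed. A few genes that this rule would name are not reported here. The alternatives tried were the distance (1 or 5 kb), the transcripts, the overlap, a −log10 q of 5 or more, the peak chosen, each replicate alone, the motif window (25 or 100 bp), the consensus, the CpG threshold and the distance called near.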

Additional observations from a re-analysis of the deposited data

How the results depend on the processing

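The alternatives for GTAAACA, AP-1 and the strength of near and CpG-rich members were picked once the values were known. In all, 85 recomputed values stayed the same. For a count this means within 1.5 times, and for a difference the same sign with 0 still inside or still outside the interval. Of the rest, 8 counts moved farther and 6 differences changed sign. Another 7 intervals came to include 0 and 4 came to exclude it. The values of the reversed consensus are among these.

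The number of members and of genes with a member was 2982 and 2735 at 5 kb, 856 and 861 where both replicates had a −log10 q of 5 or more, and 1156 members with basic transcripts only. It ranged from 2728 to 6268 members and from 2500 to 5121 genes in the list of 1 replicate alone. The difference in the forkhead consensus between members and other shared regions (2.5 points) rested on these choices. Its interval included 0 at 1 kb (1.02 points) and in windows of 25 bp (1.41 points) and of 100 bp (0.677 points). The difference was 1.31 points without replicate 2 and −1.63 points without replicate 1. Between near and other members its interval excluded 0 with basic transcripts (−6.90 points), in windows of 100 bp (−5.18 points) and without replicate 1 (−4.77 points). Without replicate 2 that difference was 1.497 points. The reversed consensus is a control sequence and not another setting of the forkhead consensus. Its differences in the same comparisons were −4.79 and −3.83 points. The difference in stronger regions between members and other shared regions was 0.585 points at 1 kb, 0.0292 points without replicate 1 and 5.14 points without replicate 2 (interval 3.14 to 7.13). With a −log10 q of 5 or more the intervals included 0 for the IDR share (−2.81 points) and for the stronger regions of near members (0.146 points) and CpG-rich members (4.53 points). The cause was not tested. Values without a replicate compare the peaks of the other list only. GTAAACA stayed more frequent in members under all 10 alternatives tried for it, from 2.18 points without replicate 1 (4.76 points without replicate 2) to 10.3 points with a −log10 q of 5 or more. AP-1 was less frequent under all 10, from −3.32 points without replicate 2 (−5.07 points without replicate 1) to −11.3 points with basic transcripts, and CpG-rich sequence more frequent under all 9, from 8.98 to 27.7 points.

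No paired analysis was possible because the input samples, which share replicate numbers with the ChIP samples, have no peak lists here.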
